A study of Nicotiana tabacum with 2 samples.

Results

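Among the chromatin regions called accessible in tobacco callus on the higher auxin concentration, 1193 were at least 350 bp wide and had no region of the lower concentration within 1000 bp of either edge. These 0.5-only wide regions were selected on measured values, namely their width and the absence of a nearby call in the other library, on chromosomes 1 to 19 of the Niben261 assembly. They made up 3.82% of the 31253 regions called on the chromosomes at 0.5 mg/L and covered 513 kb. Counting unplaced scaffolds, 31830 regions were listed for the higher and 39523 for the lower concentration. The 4229 equally wide 0.5 mg/L regions that overlapped a 0.1 mg/L region by at least 1 bp served for comparison and are called wide overlapping regions below.

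Open chromatin was mapped by ATAC-seq, which sequences the DNA that the transposase Tn5 can reach, in nuclei of pooled tobacco explants that formed callus on medium with 0.5 or 0.1 mg/L of the synthetic auxin naphthaleneacetic acid (NAA). A single library was made per concentration, so that the spread between cultures is unknown. The 0.5 mg/L sample is labelled as cultured for 3 weeks and the 0.1 mg/L sample for 2 weeks, whereas the study's methods describe the same culture time for both. If the labels hold, time and concentration cannot be told apart. The study's tobacco callus medium also held the cytokinin 6-benzyladenine, kanamycin and Timentin, and the sources used here do not state whether these explants were infected with Agrobacterium. The labels name Nicotiana tabacum, whereas the study's seeds and the assembly are of N. benthamiana.

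Chromatin is packed around histone octamers, and DNA that is free of nucleosomes or held loosely is cut by Tn5 more often than packed DNA. Stretches bound by transcription factors, such as promoters and enhancers, are often open over a nucleosome's length or more. Auxin acts through the TIR1/AFB receptors, which remove Aux/IAA repressors and so free the auxin response factors to act on their target genes. Callus is dedifferentiated tissue from which shoots can regenerate. In pooled callus, fewer cells with an open region and less opening per cell cannot be told apart.

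The libraries differed in background level, and their read counts were not compared here. The genome-wide background level, in fragments covering a base, was solved from the values of each region and came to 0.172 at the higher concentration, against 0.747 at the lower one. The narrowest region had 150 bp in the 0.5 mg/L list, against 207 bp in the 0.1 mg/L list, so that the limit of 350 bp lay well above both minimums. A summit in the 0.5 mg/L list held at least 3 fragments, against at least 5 fragments in the 0.1 mg/L list. The 0.5-only wide regions were thus missing from the list of the library with the higher background level. All intervals given below are 95% intervals for counting error over regions, which are not replicates, and no p-value was computed.

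Being wide went with having a 0.1 mg/L region nearby. Of the 5536 wide regions of the 0.5 mg/L list, 21.5% (95% interval 20.5 to 22.7%) had no 0.1 mg/L region within 1000 bp, whereas 45.1% of the 0.5 mg/L regions of any width had none. Both percentages rest on the values that chose the regions, so they are given as a description. A further 114 wide regions lay beside a 0.1 mg/L region, at up to 1000 bp, without overlap. The percentage without a 0.1 mg/L region was lower in each wider class. It was 61.5% among regions of 150 to 206 bp, which are narrower than any 0.1 mg/L region on the chromosomes. It was 30.5% (28.9 to 32.2%) among those of 300 to 349 bp, 27.2% (25.3 to 29.1%) at 350 to 399 bp, 21.0% at 400 to 499 bp and 13.9% at 500 bp or more. The percentages on either side of the 350 bp limit were close, with intervals that met.

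The 0.5-only wide regions were on the narrow side of the wide regions. Their median width was 404 bp, with quartiles of 373 and 459 bp and a maximum of 968 bp, and the wide overlapping regions had a median of 429 bp with quartiles of 384 and 510 bp. Under 400 bp lay 47.2% of the 0.5-only wide regions and 34.5% of the wide overlapping regions. At least 500 bp were reached by 15.8% of the 0.5-only wide regions and by 27.2% of the wide overlapping ones. The limits cut through a continuous range. The first 0.5-only wide regions inside the width limit, both 350 bp, were on chromosome 6 at 134987075 to 134987424 (fold 3.41) and on chromosome 7 at 37361905 to 37362254 (fold 8.18). Those just outside it, both 349 bp, were on chromosome 2 at 137607481 to 137607829 (fold 5.86) and on chromosome 3 at 37562797 to 37563145 (fold 4.11). The regions just inside the distance limit lay 1007 and 1014 bp from a 0.1 mg/L region, on chromosome 4 at 149080757 to 149081108 and on chromosome 15 at 17017131 to 17017493. Those just outside lay 944 and 942 bp away, on chromosome 12 at 123447279 to 123447743 and on chromosome 8 at 39445068 to 39445419.

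Beside the wide overlapping regions, the 0.5-only wide regions were low as well as fairly narrow. Their median summit pileup, the number of fragments stacked at the highest point, was 7 fragments (quartiles 5 and 9, range 3 to 26), against 11 fragments (quartiles 8 and 16) in the wide overlapping regions. The fold over local background had a median of 5.45 (quartiles 4.59 and 6.55) in the 0.5-only wide regions and of 7.66 (quartiles 6.15 and 9.72) in the wide overlapping regions. The median −log10 q-value was 4.46 in the 0.5-only wide regions and 8.52 in the wide overlapping ones. A −log10 q-value of at least 10 was reached by 81 of the 0.5-only wide regions (6.79%, 5.43 to 8.37%) and by 1672 of the wide overlapping ones (39.5%, 38.1 to 41.0%). The distributions overlapped, and the lowest fold was 3.15 in both sets. The local background was also lower, with a median of 0.397 fragments in the 0.5-only wide regions and 0.562 fragments in the wide overlapping regions.

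The share of wide regions without a 0.1 mg/L region fell steadily with the summit pileup. It was 57.8% (52.4 to 63.1%) at 3 to 4 fragments, 34.0% (29.9 to 38.2%) at 7 fragments, 12.0% (10.1 to 14.3%) at 11 to 13 fragments and 2.14% (1.11 to 3.71%) at 18 to 24 fragments. At 25 fragments or more, 1 of 282 wide regions was 0.5-only. The share was also lower among wider regions within classes of pileup, given as a description because the rule used width and the absence of a 0.1 mg/L region. At 3 to 6 fragments the share was 52.3% (48.0 to 56.6%) among regions of 350 to 399 bp. Among those of at least 500 bp it was 38.0% (30.7 to 45.7%). At 7 to 9 fragments it was 31.5% at 350 to 399 bp and 23.5% at 500 bp or more, and at 10 to 14 fragments it was 16.5% and 8.53% in these width classes.

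**Figure D1:**
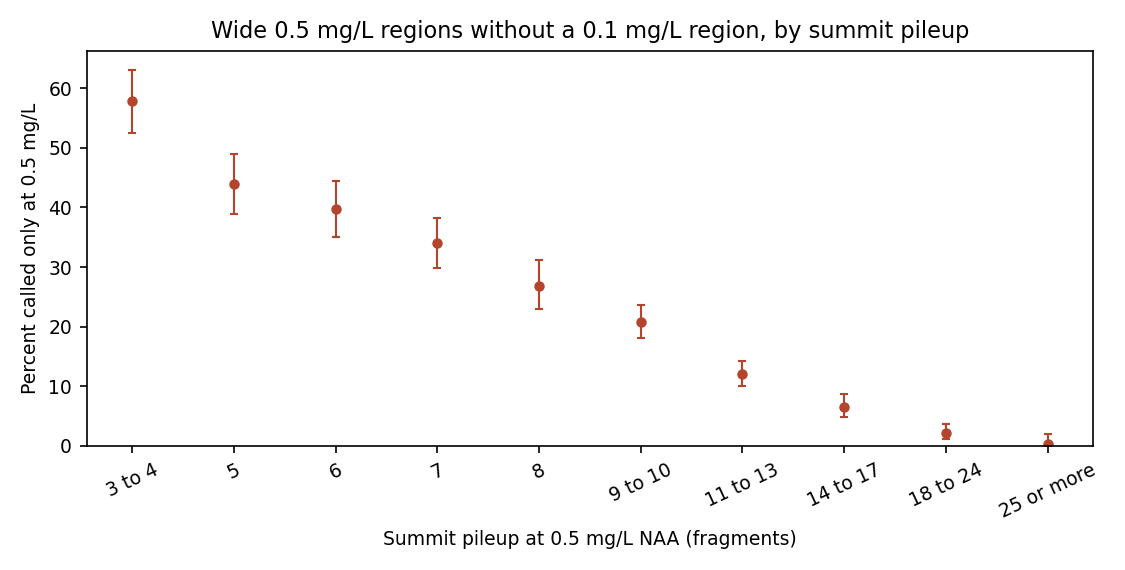
Percent of the wide 0.5 mg/L NAA regions that had no 0.1 mg/L region within 1000 bp (vertical axis), by summit pileup in fragments (horizontal axis). Points are percents and bars are exact 95% intervals over regions. The percent is 57.8% at 3 to 4 fragments and 2.14% at 18 to 24 fragments, with a steady decline between these classes.

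For scale, the 0.1 mg/L partners of wide overlapping regions with a summit of 7 fragments had a median summit of 12 fragments, and 8 to 17 fragments bounded the central 80% of them. For wide overlapping regions with 3 to 4 fragments the partners had a median of 9 fragments, and for those with 14 to 17 fragments a median of 18 fragments. These partners were called by definition, so they show where called regions lay and not where uncalled ones would lie. The lowest summit of the 0.1 mg/L list, 5 fragments, was below the lower bounds of all these classes.

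The 8 of the 0.5-only wide regions with the highest −log10 q-value are named here in that order, which is not the order of their summits or folds. The first was on chromosome 1 at 112021598 to 112021980, 383 bp wide, with a summit of 26 fragments over a local background of 1.02 fragments, a fold of 13.4 and a −log10 q-value of 23.5. Its nearest 0.1 mg/L region lay 12832 bp away and was weak, with a summit of 6 fragments and a fold of 4.01. Another 0.5-only wide region lay 1511 bp from it. These 2 regions formed the third closest pair of the 1193.

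The second was on chromosome 1 at 37054438 to 37054817 (24 fragments, fold 13.6, −log10 q-value 22.8), with no other 0.5 mg/L region within 114535 bp. The third, also on chromosome 1, lay at 183506917 to 183507329 (17 fragments, fold 12.5, −log10 q-value 18.1), at 98.6% of the chromosome's length. All of the first 3 were thus on chromosome 1, which held 73 of the 1193 regions. The next 2 were on chromosome 10, at 117783357 to 117783788 (23 fragments, fold 10.6) and at 12215269 to 12215652 (22 fragments, fold 10.9). Both had neighbors in either list within 50 kb. The sixth was on chromosome 7 at 127170314 to 127170755 (16 fragments, fold 12.2), and the seventh on chromosome 3 at 123226070 to 123226450 (17 fragments, fold 12.0). The eighth, on chromosome 11 at 42940406 to 42940784 (18 fragments, fold 11.5), had no region of either list within 50 kb. With 16 to 26 fragments, the summits of these 8 regions lay at or above the upper quartile of the wide overlapping regions. Their −log10 q-values of 16.6 to 23.5 were far below the 3 highest among the wide overlapping regions, which were 761, 718 and 652.

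The widest 0.5-only regions were of unlike strength. The widest of all was on chromosome 10 at 64369468 to 64370435, 968 bp, with a summit of 12 fragments at base 61 counted from its start. Its nearest region in either list was 144543 bp away. The next, 844 bp on chromosome 12 at 83370152 to 83370995, had a summit of 9 fragments and a fold of 5.60. The third, 828 bp on chromosome 9 at 100840377 to 100841204, had a summit of only 5 fragments and a fold of 4.02. Width and fold were weakly related across the 1193 regions (Spearman's rho 0.12), which all come from 1 library.

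Wide 0.5-only regions were found on every chromosome, at 0.406 per Mb (0.383 to 0.430) over 2937 Mb, with the length of a chromosome taken as the last region end in either list. The wide overlapping regions stood at 1.44 per Mb (1.40 to 1.48). The density of 0.5-only wide regions was highest on chromosome 6, with 84 regions (0.564 per Mb, 0.450 to 0.699), followed by chromosome 7 with 78 (0.511 per Mb) and chromosome 8 with 70 (0.508 per Mb). It was lowest on chromosome 3, with 53 regions (0.273 per Mb, 0.204 to 0.357), followed by chromosome 4 with 62 (0.327 per Mb) and chromosome 2 with 50 (0.330 per Mb). Chromosomes 6 and 3 were the only 2 of 19 whose interval did not hold the overall density, and neighbors in the order between them were not separated by their intervals.

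Chromosome 6 was also the densest in wide overlapping regions (1.88 per Mb, 1.67 to 2.11), whereas chromosome 3 was near the middle for these (1.36 per Mb, 1.20 to 1.54). Across the 19 chromosomes the densities of both sets had a Pearson's r of 0.58 and a Spearman's rho of 0.35, for which no interval was computed. Against chromosome length, Spearman's rho was −0.48 for the density of 0.5-only wide regions and −0.35 for that of wide overlapping regions. The chromosomes share the library and its depth, and r was 0.43 without chromosome 6, which is high in both. As a share of its wide regions, chromosome 10 had the most 0.5-only ones, 67 of 245 (27.3%, 21.9 to 33.4%), and chromosome 3 the fewest, 53 of 325 (16.3%, 12.5 to 20.8%). These were the only 2 of 19 chromosomes whose interval did not hold the overall 21.5%. Here too some of 19 intervals may miss by counting error alone, and that of chromosome 10 missed narrowly. At q-values under 0.001 in both lists the shares were 26.1% (20.5 to 32.4%) on chromosome 10 and 19.8% (15.4 to 24.8%) on chromosome 3, with intervals that overlapped.

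**Figure D2:**
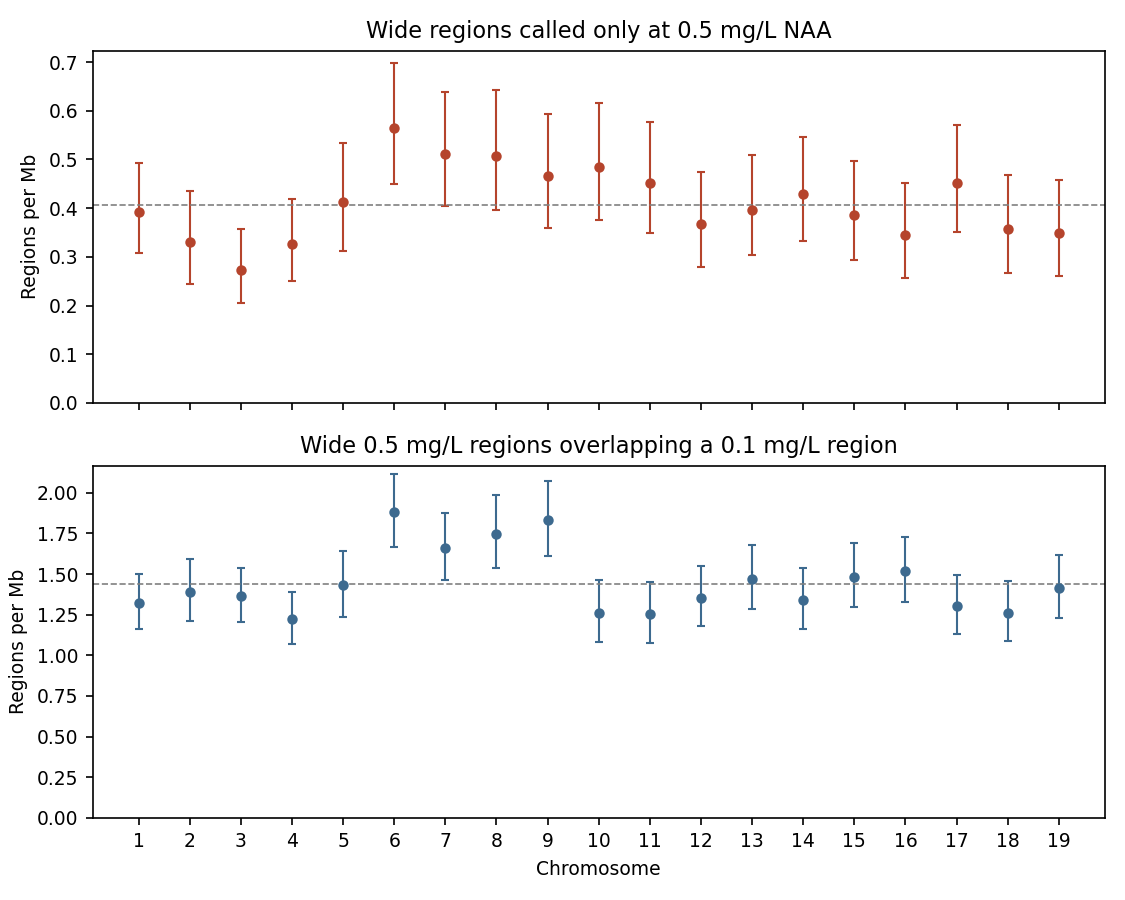
Regions per Mb (vertical axes) on each of the 19 chromosomes (horizontal axis), for the wide regions called only at 0.5 mg/L NAA (upper panel) and the wide 0.5 mg/L regions overlapping a 0.1 mg/L region (lower panel). Points are densities, bars are exact 95% Poisson intervals and dashed lines are the overall densities of 0.406 and 1.44 per Mb, and the axes differ in scale. Chromosome 6 is highest in both panels, and chromosome 3 is lowest in the upper panel only.

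Along the chromosomes the 0.5-only wide regions were spread much as the wide overlapping regions were. With each chromosome divided into 10 equal bins, 23.8% (21.4 to 26.3%) of the 0.5-only wide regions and 23.0% (21.7 to 24.3%) of the wide overlapping regions had their center in the first or last bin. The difference of 0.82 percentage points had an interval of −1.84 to 3.61, so that no difference in either direction was detectable. The 2 middle bins held 17.9% of the 0.5-only wide regions and 18.4% of the wide overlapping regions (difference −0.46 points, −2.85 to 2.09). The bin with the most 0.5-only wide regions was the last, with 161 regions (13.5%, 11.6 to 15.6%), and here too the wide overlapping regions were at their highest (11.7%, 10.8 to 12.7%). The bin with the fewest, 103 (8.63%), ended at the middle of the chromosome. For none of the 10 bins did the interval of the difference leave out 0.

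**Figure D3:**
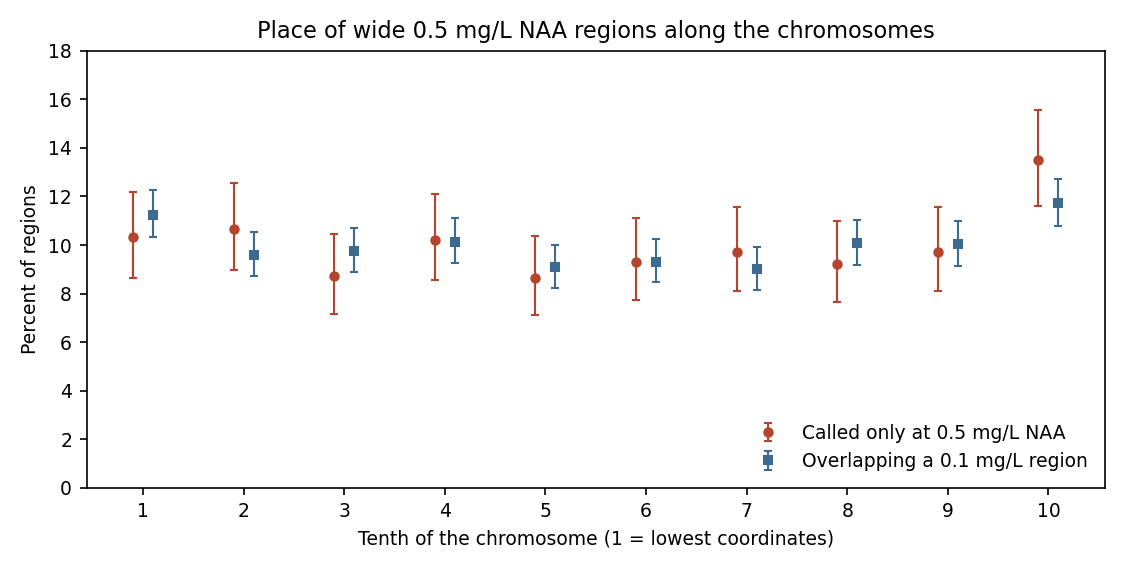
Percent of regions (vertical axis) in each of 10 equal bins along the chromosomes, from the lowest to the highest coordinates (horizontal axis), for the 1193 wide regions called only at 0.5 mg/L NAA (circles) and the 4229 wide overlapping regions (squares). Bars are exact 95% intervals over regions. Both sets peak in the last bin, at 13.5% and 11.7%, and their intervals overlap in every bin.

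Few of these regions lay close to each other. Another 0.5-only wide region lay within 10 kb of 24 of the 0.5-only wide regions (2.01%) and of 49 of the wide overlapping regions (1.16%), a difference of 0.85 percentage points (0.10 to 1.86). Within 100 kb the shares were 12.2% of the 0.5-only wide regions and 10.1% of the wide overlapping regions (difference 2.16 points, 0.19 to 4.33). At the shortest range the rule has a part in this too, because a 0.5-only wide region cannot lie within 1000 bp of the 0.1 mg/L region that a wide overlapping one overlaps. Both regions of a close pair of 0.5-only wide regions are counted, and the intervals take them as separate. These intervals are therefore too narrow, and no difference is read from them. The median distance between successive 0.5-only wide regions on a chromosome was 1.52 Mb (quartiles 0.585 and 3.32 Mb). Of the 1174 gaps, 12 were under 10 kb and 75 under 100 kb. The 2 closest pairs were on chromosome 15. In the first, 340 bp separated a region at 145962372 to 145962730 (3 fragments) from one at 145963071 to 145963426 (5 fragments). In the second, 769 bp separated a region at 96154101 to 96154461 (7 fragments) from one at 96155231 to 96155583 (13 fragments). The longest stretches without any were on chromosome 18 (21.7 Mb, from 112513722 to 134250598), chromosome 4 (18.3 Mb, from 45691995 to 64002371) and chromosome 2 (17.8 Mb, from 125983942 to 143808062). These stretches were not empty, since they held 147, 121 and 167 regions of the 0.5 mg/L list, of which 27, 18 and 38 were wide overlapping regions.

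Of 2929 whole windows of 1 Mb, 1991 held no 0.5-only wide region, 724 held 1, 183 held 2, 27 held 3 and 4 held 4. Windows with more of them also had more regions of both lists. Windows with none had a mean of 9.68 regions of the 0.5 mg/L list and 12.6 of the 0.1 mg/L list, and those with 2 had means of 14.7 and 15.5 in these lists. The 0.5 mg/L counts include the 0.5-only wide regions themselves, so part of their rise is by construction. The variance of the number per window was 1.08 times its mean for the 0.5-only wide regions and 1.31 times for the wide overlapping regions. This ratio also depends on density, which was 0.406 per Mb for the 0.5-only wide and 1.44 per Mb for the wide overlapping regions. The ratios therefore do not show which set was the more clustered. Of the windows with 4, the first by position were 2 on chromosome 8, at 6000001 to 7000000 and at 8000001 to 9000000, and 1 on chromosome 11 at 122000001 to 123000000. The first held 7 wide overlapping regions and the second 5, within totals of 28 and 22 regions at 0.5 mg/L. The window on chromosome 11 was of another kind, with 1 wide overlapping region and with 23 regions at 0.5 mg/L against 11 at 0.1 mg/L. Its 4 regions, which began at 122232974, 122464790, 122524082 and 122714312, had summits of 10, 7, 7 and 7 fragments and lay at least 58926 bp from each other.

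The distance to the nearest 0.1 mg/L region had a median of 19122 bp (interval of the median 17637 to 21012 bp), with quartiles of 8781 and 42464 bp. The rule set its lower end, at over 1000 bp. In 47 regions (3.94%) it was at most 2000 bp, in 138 (11.6%) at most 5 kb and in 82 (6.87%) more than 100 kb. The nearest 0.1 mg/L region was at lower coordinates for 582 regions and at higher coordinates for 611, so neither side prevailed. The wide overlapping regions, measured to the nearest 0.1 mg/L region that did not overlap them and with those under the same limit left out, had a median of 19549 bp (18832 to 20548 bp; n = 4012). The medians differed by less than their intervals. The nearest 0.1 mg/L regions were themselves ordinary: 42.0% of them overlapped some 0.5 mg/L region, against 40.4% of all 0.1 mg/L regions on the chromosomes.

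The regions farthest from the 0.1 mg/L list were of unlike height. The first was on chromosome 4 at 82050339 to 82050782, 288878 bp from a 0.1 mg/L region, with a summit of 18 fragments over a local background of 1.64 fragments (fold 7.20). The second was on chromosome 13 at 110583853 to 110584268, 272930 bp away with a summit of 4 fragments, and the third on chromosome 18 at 15699963 to 15700424, 247750 bp away with a summit of 3 fragments. The first and the third had no region of either list within 50 kb, whereas the second had 2 other 0.5 mg/L regions there. The strength of the 0.5-only wide regions had next to no relation to this distance (Spearman's rho of −log10 q-value against distance 0.045, n = 1193).

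The distance to the nearest other 0.5 mg/L region, which the rule did not use, had a median of 22553 bp (20757 to 25019 bp) for the 0.5-only wide regions and 21077 bp (19954 to 22440 bp) for the wide overlapping regions. The difference of 1476 bp had an approximate interval of −991 to 3943 bp, and it was −2203 bp with the wide overlapping regions weighted to the summit pileups of the 0.5-only ones, a setting chosen after the data had been examined. Within 10 kb, 26.1% (23.6 to 28.7%) of the 0.5-only wide regions and 29.2% (27.8 to 30.6%) of the wide overlapping regions had another 0.5 mg/L region, a difference of −3.13 percentage points (−5.92 to −0.24). Within 100 kb the shares were 89.4% for the 0.5-only wide regions and 89.6% for the wide overlapping ones (difference −0.24 points, −2.32 to 1.64). The rule has a part in the deficit at short range, because a neighbor that comes with a 0.1 mg/L region within 1000 bp of a wide region removes that region from the set. The most isolated were on chromosome 11 at 19456200 to 19456554 (471114 bp from the next 0.5 mg/L region), chromosome 17 at 92756459 to 92757016 (439188 bp) and chromosome 18 at 44171979 to 44172455 (348355 bp). The one on chromosome 17 had a 0.1 mg/L region 3621 bp away and 3 of them within 50 kb.

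**Figure D4:**
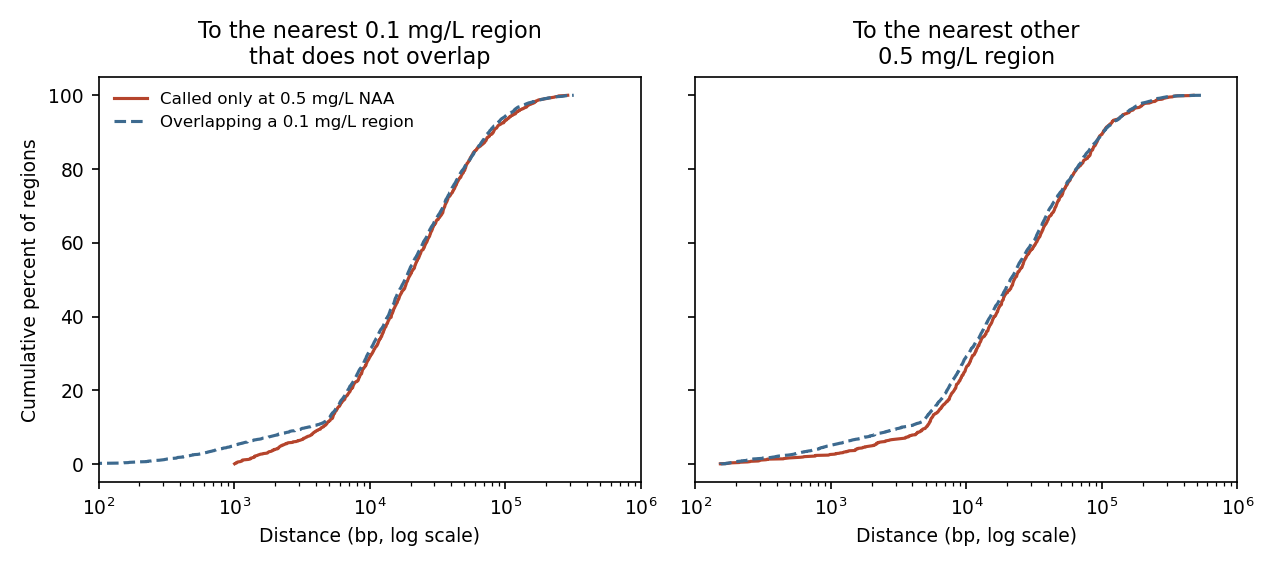
Cumulative percent of regions (vertical axis) against distance in bp on a log scale (horizontal axes), to the nearest 0.1 mg/L region that does not overlap (left) and to the nearest other 0.5 mg/L region (right). Solid lines are the wide regions called only at 0.5 mg/L NAA, with medians of 19122 and 22553 bp, and dashed lines the wide overlapping regions, with medians of 18180 and 21077 bp. The solid line of the left panel starts at 1007 bp because of the rule, and all lines steepen near 5 kb.

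Both lists held fewer regions at 2 to 5 kb from the center of a 0.5-only wide region than at 5 to 8 kb. At 2 to 5 kb there were 8.24 other 0.5 mg/L regions per Mb searched (6.27 to 10.6; 59 regions), against 18.6 (15.6 to 22.0; 133 regions) at 5 to 8 kb. The 0.1 mg/L regions numbered 13.1 per Mb (10.6 to 16.1; 94 regions) at 2 to 5 kb and 21.7 per Mb (18.4 to 25.3; 155 regions) at 5 to 8 kb. For scale, the chromosomes held 31253 regions of the 0.5 mg/L list and 38543 of the 0.1 mg/L list over 2937 Mb. The density of 0.1 mg/L regions at 2 to 5 kb was thus near that list's density over the chromosomes. Around the wide overlapping regions a step was present too. The 0.5 mg/L list had 7.80 (6.75 to 8.97) and 21.0 (19.2 to 22.8) regions per Mb at the nearer and the farther range. The 0.1 mg/L regions there numbered 7.88 (6.83 to 9.05) and 23.0 per Mb (21.1 to 24.9). At 2 to 5 kb the intervals of the 0.1 mg/L densities around both sets did not meet. The rule used the positions of the 0.1 mg/L regions, though only up to 1000 bp from an edge. These densities are therefore a description, and no difference between the sets is read from them. The cause of the step was not tested.

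The wider surroundings of both sets were close. Within 50 kb of a 0.5-only wide region there was a mean of 1.41 other 0.5 mg/L regions, against 1.55 around a wide overlapping region, a difference of −0.137 (−0.221 to −0.0535) that was −0.040 with the same weighting to summit pileups. At 10 to 50 kb from the center there was a mean of 1.13 ± 0.033 other 0.5 mg/L regions (SE over regions, n = 1193), against 1.21 ± 0.019 around the wide overlapping regions (n = 4229). For 0.1 mg/L regions the means were 1.32 ± 0.034 around the 0.5-only wide regions and 1.39 ± 0.020 around the wide overlapping regions. Of the 1346 neighboring 0.5 mg/L regions at that range, 39.5% (36.9 to 42.2%) had no 0.1 mg/L region within 1000 bp, and around the wide overlapping regions 41.5% (40.2 to 42.9%) of 5102 had none. At 50 to 100 kb the shares were 44.9% (42.4 to 47.5%) around the 0.5-only wide regions and 43.4% (42.1 to 44.7%) around the wide overlapping ones. The intervals of both sets met at either range. At 2 to 10 kb the share was 48.1% (42.1 to 54.0%) around the 0.5-only wide regions and 42.1% (39.2 to 45.0%) around the wide overlapping ones, again with intervals that met. The nearest other 0.5 mg/L region had no 0.1 mg/L region within 1000 bp for 46.8% (43.9 to 49.7%) of the 0.5-only wide regions and for 43.0% (41.5 to 44.5%) of the wide overlapping regions, a difference of 3.76 points (0.57 to 6.96). The rule bears on the nearest of these neighbors, since it bars 0.1 mg/L regions close to the 0.5-only wide regions.

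The summit lay nearer an edge in the 0.5-only wide regions. It was within 20% of the region's length from either end in 375 of them (31.4%, 28.8 to 34.2%) and in 940 of the wide overlapping regions (22.2%, 21.0 to 23.5%), a difference of 9.21 percentage points (6.33 to 12.2). It was present in each class of width, at 10.4 points for 350 to 399 bp, 12.3 points for 400 to 499 bp and 7.32 points for 500 bp or more. It was smaller among regions of like summit pileup, where no class had an interval that left out 0. At 3 to 6 fragments the shares were 34.9% in 0.5-only wide regions and 34.5% in wide overlapping regions (difference 0.41 points, −5.14 to 5.96), and at 7 to 9 fragments they were 31.3% in 0.5-only wide regions and 30.7% in wide overlapping regions (difference 0.56 points, −4.72 to 6.05). At 10 to 14 fragments the difference was 3.74 points (−2.06 to 10.3), and at 15 fragments or more, with 38 of the 0.5-only wide regions, it was 7.02 points (−2.36 to 22.1). Lower summits thus went with more lateral summits in both sets.

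**Figure D5:**
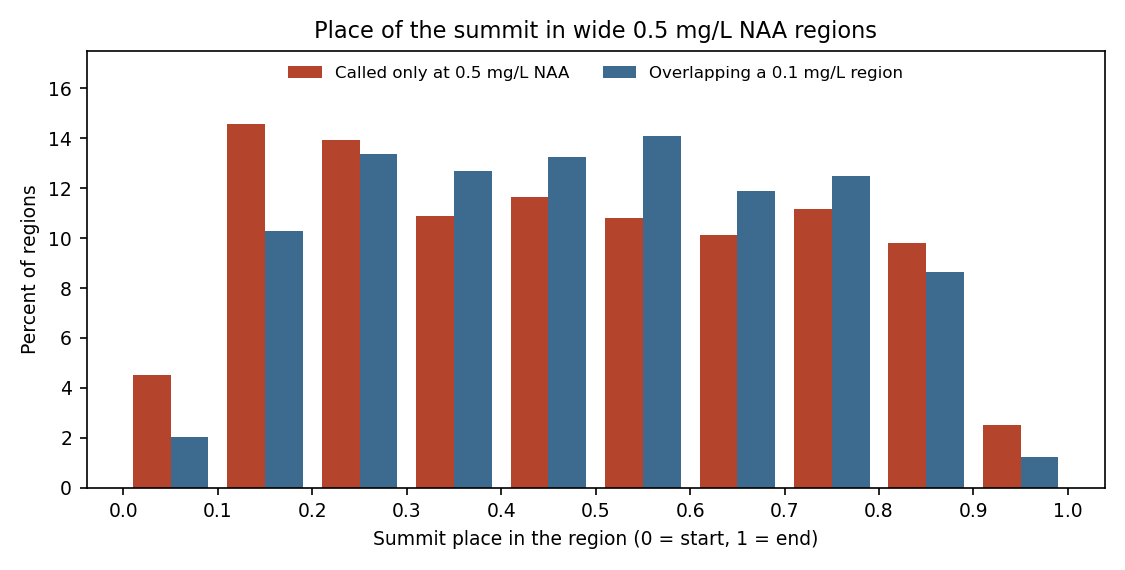
Percent of regions (vertical axis) by the place of the summit in the region, from 0 at the start to 1 at the end (horizontal axis), for the wide regions called only at 0.5 mg/L NAA (left bar of each pair) and the wide overlapping regions (right bar). The 0.5-only wide regions are the more frequent in the outermost bins at both ends, and 31.4% of them against 22.2% of the wide overlapping regions have the summit within 20% of the length from an end.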

How the data were processed

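Nuclei of pooled explants were assayed in 1 library per NAA concentration, and samples were grouped by the concentration in their titles. According to the labels and the study's methods, the authors trimmed paired-end reads with Trimmomatic 0.39, aligned them to the N. benthamiana genome with BWA and called regions in each library separately with MACS2 2.2.7.1 at q-values under 0.05. No control library is named, and the treatment of duplicates, organelle reads and the Tn5 offset is not given in the sources used here. The labels also mention formaldehyde fixation and sonication. The deposited columns were used as follows. The deposited score restates the −log10 q-value as a whole number and was not needed. The deposited fold is a ratio of summit pileup to local background with a pseudocount of 1. The deposited −log10 p-value and −log10 q-value describe the summit within its own library.

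The distance of 2 regions is the number of bases between their edges, and coordinates are counted from 1. Summit pileup and background were solved from fold and −log10 p-value, which succeeded for all 1193 regions and for 4218 of the 4229 wide overlapping regions. The other 11 have p-values too small to be computed. The pileup counts the fragments or reads that MACS2 stacked, whose mode is not given in the sources used here. Shares carry exact Clopper-Pearson intervals, their differences Newcombe intervals, densities exact Poisson intervals and medians order-statistic intervals. The genome-wide background is the lowest level shared by at least 20 regions. Distances and the recovery of pileups were tested on simulated data. Python 3.11.15, pandas 2.3.3, numpy 2.4.6 and scipy 1.17.1 were used.

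Named regions are those with the highest −log10 q-value, the greatest width, the greatest distance from either list and the closest pairs, the densest windows, and those at the limits of the rule. Regions, lists and comparisons were chosen with earlier results of these data known. Alternatives varied the width and distance limits, the q-value, merging, chromosome length and the choice of wide overlapping regions. Sequences and gene features were not analysed here, because no genome of this assembly was at hand.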

Additional observations from a re-analysis of the deposited data

Results flagged for a closer look

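On unplaced scaffolds, which the comparisons leave out, 18 of 134 wide regions of the 0.5 mg/L list had no 0.1 mg/L region within 1000 bp. They are given because they lie outside the data compared, and their share of 13.4% (exact 95% interval 8.16 to 20.4%) stood beside 21.5% on the chromosomes. Of the 18, 16 were on scaffolds with no 0.1 mg/L region at all.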

How the results depend on the processing

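A total of 55 values were recomputed under 13 settings, of which 36 stayed within their interval (counts, within 1.5 times) and 19 moved. No paired analysis was possible because there was a single library at either concentration. The weighting by summit pileup and all settings for the summit place were added once the data were seen. Where no cause is given, the cause was not tested.

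The number of 0.5-only wide regions was 2148 at a minimum width of 300 bp, 189 at 500 bp and 497 with q-values under 1e-05 in the 0.5 mg/L list, which by construction admit more or fewer regions. With q-values under 0.001 in both lists it was 1202, of which 937 were among the 1193. Their percent of the wide regions was 24.8% at 300 bp, 13.9% at 500 bp, 23.6% when only overlap was barred, 19.1% at a distance of 5000 bp, 23.6% at q-values under 0.001 and 12.6% at q-values under 1e-05. The median distance to the nearest 0.1 mg/L region was 22051 bp at a width of 500 bp, 16558 bp when only overlap was barred, 22948 bp at a distance of 5000 bp and 30870.5 bp at q-values under 0.001. That to the nearest other 0.5 mg/L region was 29535 bp at q-values under 0.001 and 50677 bp at q-values under 1e-05, where fewer regions are left. The percent in the outermost bins stayed between 22.3% and 23.8% under all 7 settings run for it. Merging regions within 150 bp changed nothing, because no 2 regions were that close.

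With the wide overlapping regions weighted to the −log10 q-values or the summit pileups of the 0.5-only ones, the difference in summits near an end was 1.28 and 1.48 percentage points. Weighted by summit pileup, the difference in median distance to the nearest other 0.5 mg/L region was −2203 bp, and that in the mean number of 0.5 mg/L regions within 50 kb was −0.040 (unweighted −0.137). A summit of 3 to 5 fragments limits what can be said of single regions.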
